A study of Mus musculus with 20 samples.

Results

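The genes described here are 10 components of the activin and bone morphogenetic protein (BMP) pathways in mouse liver. They are the activin β subunit genes Inhba, Inhbb, Inhbc and Inhbe, the activin antagonist gene Fst, the BMP ligand genes Bmp2 and Bmp6, the inhibitory SMAD genes Smad6 and Smad7, and the target gene Id1. They were chosen by name, as the rows whose gene symbol equals a listed member, and make up 10 of the 37681 genes in the count tables. All 10 passed the filter on low counts, which left 15578 genes to be tested. Liver RNA came from 10 wild-type male C57/B6J mice (C57/BL6 in the labels) aged 12 weeks. Of these, 5 received the inflammatory cytokine IL-1β by intraperitoneal injection at 20 µg/kg and 5 received saline, and livers were taken 4 hours later. Mice bear the names of the labels, ILB for IL-1β and UNT for saline, with a number. The RNA of every mouse was sequenced with 2 platforms, Illumina (HiSeq) and Ion Torrent (Proton), and the reads of each were aligned in 3 ways, with STAR, GSNAP or STAR followed by Bowtie2. The comparison of IL-1β with saline was made within each of the resulting 6 tables, with Illumina STAR as the main one.

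Activins are secreted dimers of β subunits, encoded by Inhba (βA), Inhbb (βB), Inhbc (βC) and Inhbe (βE), the last pair being expressed chiefly in hepatocytes. Activins act through type II and type I receptors on SMAD2 and SMAD3, and BMPs on SMAD1, SMAD5 and SMAD9, all of which pair with SMAD4 to enter the nucleus. Both branches induce their own brakes: follistatin (Fst) traps activins outside the cell, SMAD6 and SMAD7 block the receptors from inside, and Id1 is a standard readout of BMP signaling. In liver, the branch is best known for its control of hepcidin, the iron hormone encoded by Hamp, by BMP ligands of the sinusoidal endothelium.

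The β subunit genes lay at chr13:16103684-16119044 on the plus strand (Inhba, 1980 bases of exon), at chr1:121312042-121318825 on the minus strand (Inhbb, 4255 bases), and side by side on the minus strand of chromosome 10 (build NCBIM37, which is mm9). Inhbe at chr10:126786458-126788828 (2135 bases of exon) and Inhbc at chr10:126793384-126807600 (1966 bases) were separated by 4555 bases. The 250 bases before the RefSeq start site are shown for the β subunit genes that changed, and for Hamp as a SMAD target that also changed. The sequences are those of RefSeq (table of GRCm38.p6), were read 5′ to 3′ on the strand of the gene, and each matched NCBIM37 at 1 place: chr1:121318826-121319075 for Inhbb, chr13:16103434-16103683 for Inhba, chr10:126807605-126807854 for Inhbc and chr7:31729049-31729298 for Hamp. Capitals mark matches, on either strand, to any of 7 motifs: the SMAD box CAGAC, the SMAD palindrome GTCTAGAC, the BMP-responsive GC box GGCGCC, the STAT motif TTCNNNGAA, the AP-1 motif TGANTCA, the C/EBP palindrome TTGCGCAA and the NF-kB consensus.
Inhbb: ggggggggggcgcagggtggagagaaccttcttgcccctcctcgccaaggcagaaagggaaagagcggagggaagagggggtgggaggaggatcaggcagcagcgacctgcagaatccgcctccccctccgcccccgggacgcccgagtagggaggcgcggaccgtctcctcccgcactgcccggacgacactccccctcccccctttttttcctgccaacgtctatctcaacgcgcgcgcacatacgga
Inhba: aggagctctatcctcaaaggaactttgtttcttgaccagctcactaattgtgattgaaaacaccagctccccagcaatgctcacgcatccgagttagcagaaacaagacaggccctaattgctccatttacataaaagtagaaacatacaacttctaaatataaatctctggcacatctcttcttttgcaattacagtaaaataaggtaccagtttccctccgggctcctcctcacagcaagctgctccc
Inhbc: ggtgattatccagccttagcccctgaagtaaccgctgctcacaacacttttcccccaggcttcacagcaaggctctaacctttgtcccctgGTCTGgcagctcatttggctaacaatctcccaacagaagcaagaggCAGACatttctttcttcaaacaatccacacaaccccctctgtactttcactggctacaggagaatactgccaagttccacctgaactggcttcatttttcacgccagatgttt
Hamp: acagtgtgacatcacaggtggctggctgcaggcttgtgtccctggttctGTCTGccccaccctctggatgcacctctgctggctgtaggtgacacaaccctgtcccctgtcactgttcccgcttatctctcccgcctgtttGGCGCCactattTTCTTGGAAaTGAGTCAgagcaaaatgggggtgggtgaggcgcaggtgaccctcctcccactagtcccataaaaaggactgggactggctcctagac

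The stretches before Inhbb and Inhba held none of the 7 motifs and differed in base composition. The Inhbb stretch had 68.0% G+C and 21 CpG dinucleotides, and the Inhba stretch 43.2% and 3. The 32851 promoters of the table had a median of 52.4% G+C, with a 5th percentile of 34.8% and a 95th of 73.6%. Both stretches lay within that range. Inhbc held 2 SMAD boxes, a motif present in 42.2% of all these promoters. Hamp held 1 SMAD box, 1 BMP-responsive GC box (in 9.59% of promoters), 1 STAT motif (in 7.02%) and 1 AP-1 motif (in 6.75%), without overlap between them. A match is a run of letters and not a measured site. Promoter entries were matched for 6 of the 10 genes. Fst, Bmp2, Smad7 and Id1 were not matched.

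Values are whole-number counts, called reads here, which the authors had re-sampled within each table. Library totals ranged from 10568530 to 12008799 with Illumina and from 12199528 to 16439683 with Ion Torrent, over the aligners, and within the Illumina STAR table they were 10568530 to 10655860 with IL-1β and 10887640 to 11046256 with saline. No 2 libraries of a table held identical counts. The Illumina and Ion Torrent libraries of saline mouse UNT_9584 were the least alike. Over the aligners, their deviations from the group means correlated at r = 0.197 to 0.249. The other 9 mice had 0.591 to 0.746. Such a correlation cannot say which of the 2 libraries was off. By chi-square per gene, the Illumina STAR library of UNT_9584 differed from the other saline libraries by 27.3 to 41.3. Those differed among themselves by 17.3 to 30.2. With Ion Torrent STAR the ranges were 24.7 to 35.6 and 15.9 to 31.6. The paper describes a shifted Ion Torrent read-length distribution for this mouse. Which library was off was not tested. Ion Torrent STAR changes without this mouse are given for Fst, Smad7, Id1 and Inhbe. Differences of the treatment effect between platforms are given without it for Fst, Id1 and Inhba. The remaining Ion Torrent changes and levels of single genes include it. Of the hepatocyte markers, albumin (Alb) had 505223 to 966350 reads in every Illumina STAR library. The neutrophil list, by contrast, summed to 0.711 to 2.91 counts per 1000000 reads (CPM) with saline and 42.4 to 97.3 CPM with IL-1β. In whole liver, fewer cells of a type and less RNA per cell cannot be told apart.

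In the Illumina STAR table, 4 of the 10 genes were called at an adjusted p below 0.05 (edgeR's quasi-likelihood test, Benjamini-Hochberg over the 15578 genes). Inhbb and Id1 were higher with IL-1β, and Inhba and Inhbc were lower. The 2 of 10 genes called higher stand beside 22.7% of all tested genes, and the 2 called lower beside 22.9%, so the share of these genes that changed was close to the background. The median log2 fold change of the 10 was -0.11, against 0 over all tested genes, and the median size of the change was 0.56, against 0.47. In 3 genes the treated and saline mice did not overlap in CPM: Inhbb lay above (1 of 10 genes, where 17.6% of all genes did so), and Inhba and Inhbc lay below (2 of 10, where 16.2% did).

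Inhba fell most. It had 35, 9, 71, 64 and 20 reads in saline mice UNT_9574, UNT_9575, UNT_9576, UNT_9580 and UNT_9584, and 3, 4, 2, 2 and 0 reads in IL-1β mice ILB_9577, ILB_9578, ILB_9579, ILB_9582 and ILB_9583. Every treated mouse was below every saline mouse, and the saline mice themselves spread widely. Inhba, the βA subunit of activin A, changed by -3.93 on the log2 scale (SE 0.64, 95% interval -5.28 to -2.58, adjusted p = 0.000132), a 15.2-fold lower level. The mean was 3.46 ± 2.35 CPM with saline and 0.215 ± 0.145 CPM with IL-1β (SD, n = 5 each). The 2-sided exact rank permutation test gave p = 0.00794, the smallest that 5 against 5 mice can give. The size rests on 11 reads over the treated mice.

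The Ion Torrent STAR libraries gave 18, 16, 79, 76 and 43 reads in the same saline mice and 12, 3, 1, 5 and 4 with IL-1β. Again the groups did not overlap, and mice UNT_9576 and UNT_9580 were the highest on both platforms. The log2 change there was -3.05 (SE 0.56, adjusted p = 0.000277). Over the 6 tables it ranged from -4.19 to -2.81 and was called lower in all 6, with non-overlapping groups in all 6.

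Inhbb moved the other way. Saline mice had 17, 15, 10, 1 and 4 reads, and IL-1β mice had 61, 52, 72, 43 and 40, in the order of mice given for Inhba. The lowest treated mouse was well above the highest saline mouse. Inhbb, the βB subunit, rose by 2.68 on the log2 scale (SE 0.37, 95% interval 1.89 to 3.47, adjusted p = 3.19e-05), from 0.802 ± 0.570 to 5.27 ± 1.26 CPM, 6.40-fold. The exact permutation p was 0.00794. With Ion Torrent STAR the counts were 26, 9, 16, 8 and 7 against 49, 75, 97, 39 and 66, again without overlap, and the log2 change was 2.46 (SE 0.34, adjusted p = 1.85e-05). It was called higher in all 6 tables, from 2.46 to 2.68.

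Inhbc was the most highly expressed of the 10 genes. Its counts were 983, 1018, 975, 673 and 853 with saline and 472, 515, 427, 444 and 570 with IL-1β. The groups did not overlap, with saline mouse UNT_9580 closest to the treated mice. Inhbc, the hepatocyte βC subunit, fell by 0.71 on the log2 scale (SE 0.12, 95% interval -0.96 to -0.46, adjusted p = 0.000180), from 78.2 ± 10.7 to 47.9 ± 6.19 CPM, 1.63-fold. In the Ion Torrent STAR table the change was -0.74 (SE 0.13, adjusted p = 0.000147). The call was the same in all 6 tables, but the groups were apart in the 3 Illumina tables and overlapped in the 3 Ion Torrent tables. With Ion Torrent STAR the overlap came from IL-1β mouse ILB_9583 (74.57 CPM) and saline mouse UNT_9580 (74.55 CPM).

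Inhbe, the neighboring hepatocyte βE gene, showed no call in any table. Its counts were 493, 742, 460, 306 and 636 with saline and 494, 439, 308, 606 and 448 with IL-1β. The ranges lay on top of each other. The log2 change was -0.03 (SE 0.21, adjusted p = 0.967), with an interval from -0.47 to 0.42. The estimated Inhbc change of -0.71 lies outside it, but the Inhbc interval (-0.96 to -0.46) overlaps it slightly. The difference between the 2 genes was not tested. Over the 6 tables the Inhbe change was -0.17 to -0.03, and none of the adjusted p-values was below 0.610. The Inhbe level varied among saline mice, with mouse UNT_9580 the lowest on both platforms.

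**Figure D1:**
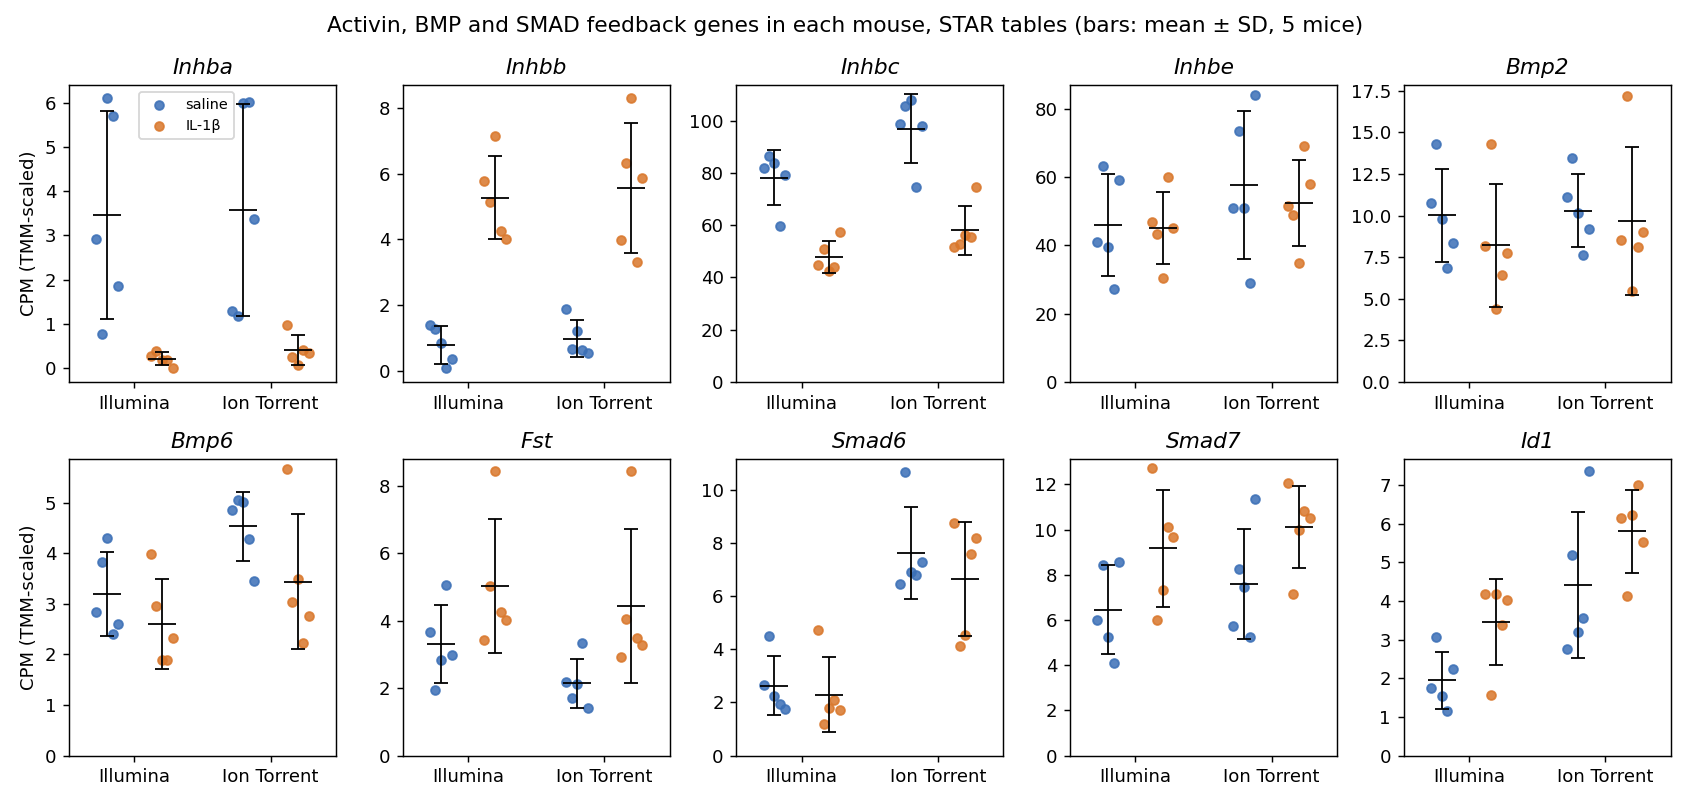
CPM (TMM-scaled, vertical axes that include 0) of the 10 genes in each of 5 saline (blue) and 5 IL-1β (orange) mice, in the Illumina STAR and Ion Torrent STAR tables, with black bars for mean ± SD. Treated and saline points are fully apart for Inhba and Inhbb on both platforms and for Inhbc on Illumina, and they overlap for the other 7 genes.

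Per kilobase of exon, which allows levels of different genes to be compared, the β subunit genes of saline livers were led by Inhbc at 39.8 ± 5.42 CPM per kb and Inhbe at 21.5 ± 6.97 (Illumina STAR, SD, n = 5). Bmp2 (2.81 ± 0.792), Inhba (1.75 ± 1.18), Id1 (1.68 ± 0.633), Smad7 (1.43 ± 0.436), Fst (1.23 ± 0.431), Bmp6 (0.890 ± 0.230) and Smad6 (0.837 ± 0.353) followed, each with a mean ± SD that overlapped that of the next in this order, and Inhbb was last at 0.188 ± 0.134. The steps from Inhbc to Inhbe, from Inhbe to Bmp2 and from Smad6 to Inhbb were larger than the spread. In treated livers Inhbc (24.3 ± 3.15) and Inhbe (21.2 ± 4.92) no longer stood apart by their SDs. Inhbb moved from the tenth place to the seventh (1.24 ± 0.297), and Inhba from the fourth to the tenth (0.109 ± 0.0731).

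The 4 β subunit genes together summed to 63.3 ± 10.6 CPM per kb in saline and 46.8 ± 5.65 in treated livers, with ranges of 46.0 to 74.3 and 37.7 to 51.6 that overlapped through saline mouse UNT_9580. The share of Inhbc in this sum was 58.4 to 66.4% with saline and 43.4 to 57.2% with IL-1β, and that of Inhbe 27.7 to 40.1% and 38.0 to 54.5%. Inhba made up 0.520 to 6.24% with saline and 0 to 0.419% with IL-1β, and Inhbb 0.0454 to 0.531% and 1.85 to 4.46%. Thus Inhba exceeded Inhbb in each of the 5 saline livers, and Inhbb exceeded Inhba in each of the 5 treated livers, while both stayed minor beside Inhbc and Inhbe. These sums and shares are descriptions and were not tested. Summed levels were higher in the Ion Torrent STAR table, at 78.4 ± 14.7 and 55.7 ± 8.15 CPM per kb.

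**Figure D2:**
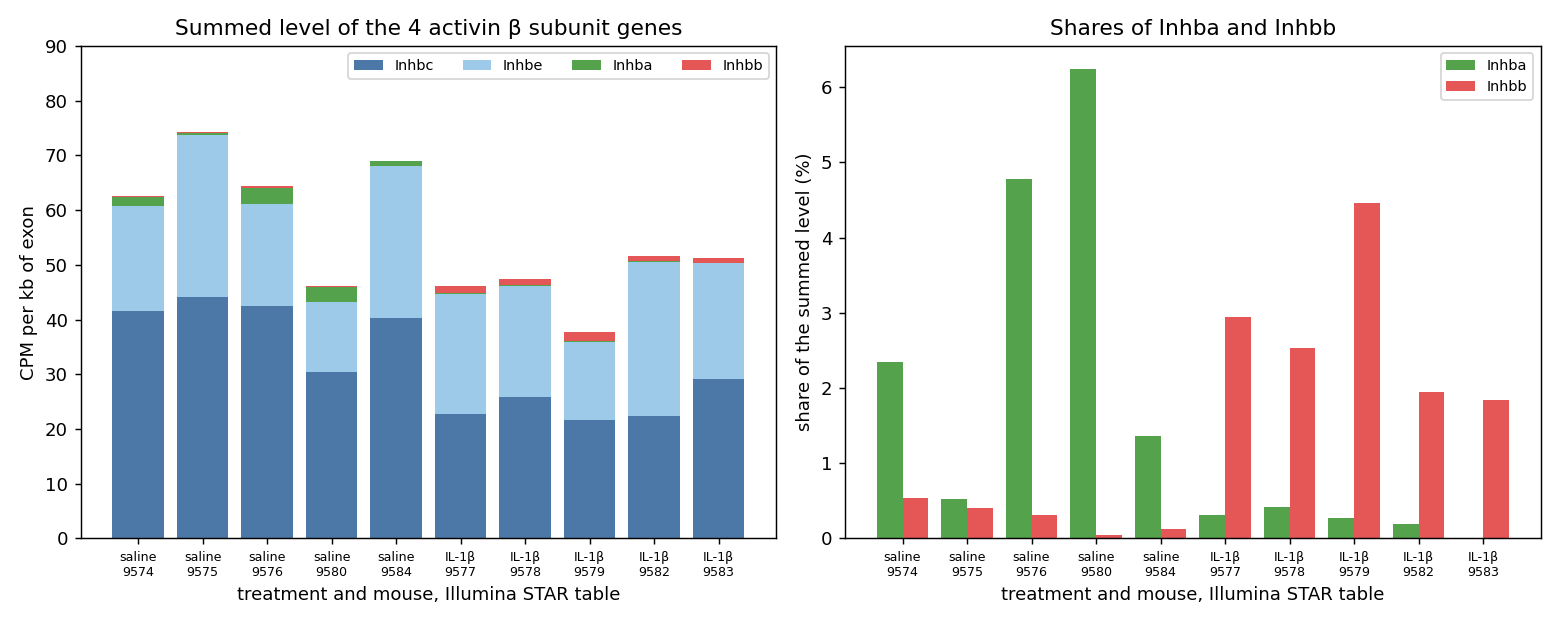
Left, level of the 4 activin β subunit genes in each mouse (CPM per kb of exon, Illumina STAR), stacked so that the bar height is their sum. Right, the shares of Inhba and Inhbb in that sum in percent: Inhba is the larger in all 5 saline mice and Inhbb in all 5 IL-1β mice.

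Of the BMP ligands, neither Bmp2 nor Bmp6 was called in any of the 6 tables. Bmp2 had 77 to 168 reads with saline (median 114) and 44 to 145 with IL-1β (median 77), which overlapped, and its log2 change was -0.29 (SE 0.27, interval -0.85 to 0.28, adjusted p = 0.412). It was -0.58 (adjusted p = 0.0515) without IL-1β mouse ILB_9578 and -0.12 (adjusted p = 0.766) without saline mouse UNT_9575. Bmp6, the ligand best known for inducing hepcidin, had 27 to 50 reads (median 34) and 19 to 42 (median 23). Its log2 change was -0.29 (SE 0.25, interval -0.82 to 0.24, adjusted p = 0.375), negative in all 6 tables, and ran from -0.50 without IL-1β mouse ILB_9577 to -0.16 without saline mouse UNT_9576. Bmp6 overlaps Txndc5 on the opposite strand. Both library kits keep strand, but whether the counting used it was not stated, and Txndc5 itself had a log2 change of 0.30 (adjusted p = 0.0501).

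Fst, the follistatin gene, depended on the platform table. In the Illumina STAR table the counts were 44, 23, 33, 57 and 32 with saline and 36, 51, 85, 43 and 40 with IL-1β. The groups overlapped, with saline mouse UNT_9580 above 4 of the treated mice. The log2 change was 0.61 (SE 0.28, interval 0.02 to 1.20), with an adjusted p of 0.0869 in edgeR. In the Ion Torrent STAR table the counts were 30, 23, 28, 42 and 18 against 36, 48, 99, 41 and 37, the log2 change was 1.04 (SE 0.31) and edgeR's adjusted p was 0.0117. The 3 Ion Torrent tables called Fst higher and the 3 Illumina tables did not. Leaving out saline mouse UNT_9580 (0.81, adjusted p = 0.0276) or IL-1β mouse ILB_9577 (0.72, adjusted p = 0.0497) gave a call in the Illumina STAR table too. Without IL-1β mouse ILB_9579, which had the most Fst reads, the value there was 0.34 (adjusted p = 0.297). In the Ion Torrent STAR table ILB_9579 was also the highest, at 8.45 CPM, where the other treated mice had 2.92 to 4.05 CPM. Saline mouse UNT_9580, at 3.33 CPM, lay within that range. The Ion Torrent STAR change was not refitted without ILB_9579. Without saline mouse UNT_9584 the Ion Torrent STAR value of Fst was 0.93 (adjusted p = 0.0318).

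The inhibitory SMAD genes did not pass the test in any full table. Smad7 had 72, 99, 61, 46 and 92 reads with saline and 134, 61, 74, 102 and 96 with IL-1β, with overlap. Its log2 change was 0.51 (SE 0.23, interval 0.01 to 1.0, adjusted p = 0.0884), and it was positive in all 6 tables, at 0.32 to 0.51. It was called without IL-1β mouse ILB_9578 (0.63, adjusted p = 0.0354) or without saline mouse UNT_9584 (0.63, adjusted p = 0.0472 for Illumina STAR and 0.60, adjusted p = 0.0214, for Ion Torrent STAR). Leaving out IL-1β mouse ILB_9577, the highest treated mouse, gave 0.36 (adjusted p = 0.235). Smad6 had 19 to 53 reads with saline (median 26) and 12 to 50 with IL-1β (median 18). Its log2 change was -0.19 (SE 0.35, interval -0.94 to 0.57, adjusted p = 0.721), an interval that holds changes of either direction.

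Id1 had a positive change in all 6 tables and was called higher in the full Illumina STAR table alone. Its counts were 21, 36, 18, 13 and 24 with saline and 44, 16, 42, 34 and 40 with IL-1β. IL-1β mouse ILB_9578 lay among the saline mice, and saline mouse UNT_9575, at 3.06 CPM, lay just under the next treated mouse, at 3.37 CPM. The log2 change was 0.83 (SE 0.29, interval 0.20 to 1.45, adjusted p = 0.0308), from 1.95 ± 0.734 to 3.46 ± 1.11 CPM, and the exact permutation p was 0.0556. The other 5 tables gave 0.31 to 0.75 with adjusted p-values of 0.0961 to 0.363. In the Illumina STAR table the call was also lost without IL-1β mouse ILB_9577 (0.75, adjusted p = 0.0680), ILB_9579 (0.75, 0.0690) or ILB_9583 (0.77, 0.0669), and without saline mouse UNT_9574 (0.78, 0.0648), UNT_9576 (0.75, 0.0694) or UNT_9580 (0.69, 0.0736). In the Ion Torrent STAR table, saline mouse UNT_9584 had the most Id1 reads of any mouse (94), and without it the log2 change was 0.66 (SE 0.23, adjusted p = 0.0320).

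**Figure D3:**
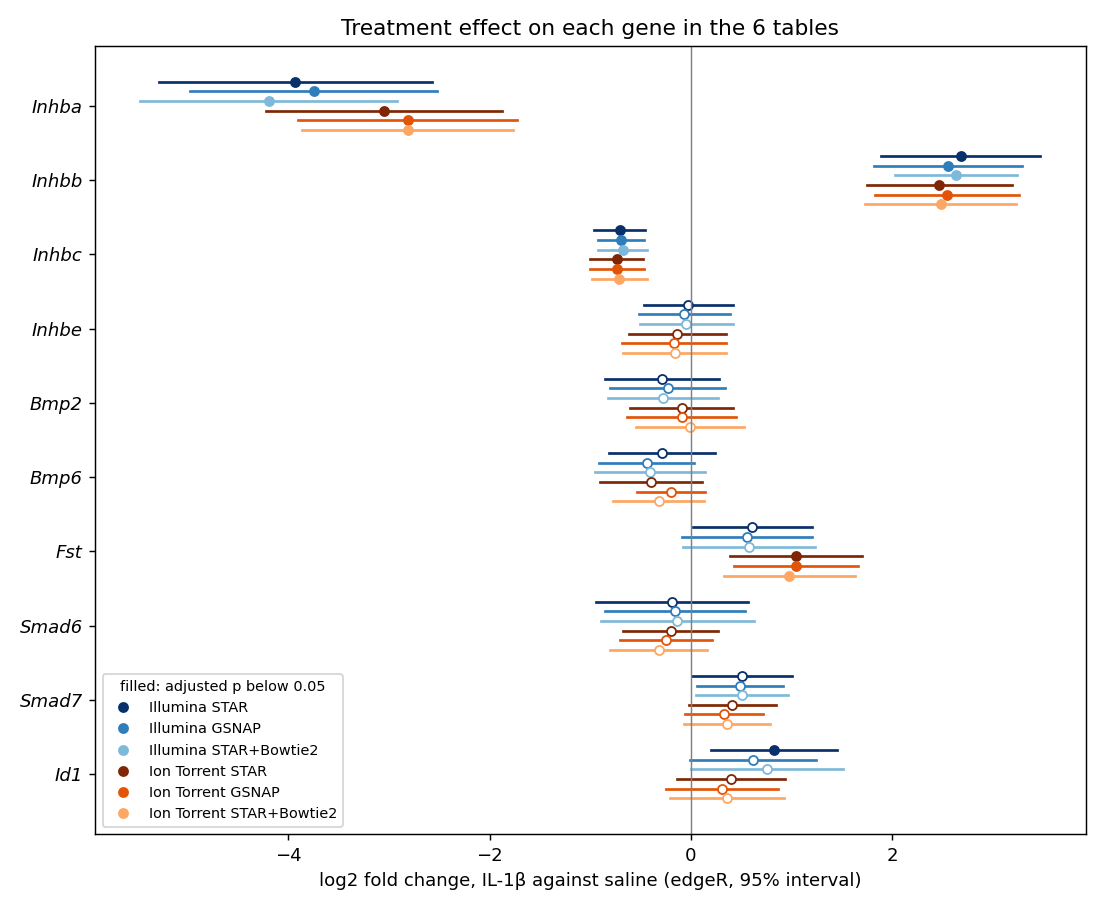
Log2 fold change of IL-1β against saline (horizontal axis, points) with the 95% interval of edgeR's fit (lines) for each gene in the 6 tables; filled points have an adjusted p below 0.05. Inhba and Inhbc are called lower and Inhbb higher in all 6 tables, Fst is called in the 3 Ion Torrent tables and Id1 in the Illumina STAR table.

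The other tables called 3 or 4 of the 10 genes. These were 3 with Illumina GSNAP (47.5% of all tested genes were called there in either direction), 3 with Illumina STAR+Bowtie2 (47.4%), 4 with Ion Torrent STAR (42.1%), 4 with Ion Torrent GSNAP (46.4%) and 4 with Ion Torrent STAR+Bowtie2 (46.7%). Whether the treatment effect itself differed between platforms was tested by a platform-by-treatment term over the 20 STAR libraries, with the mouse as a block. None of the 10 genes was called, where 0.00642% of all genes (1 of 15578) were. By unadjusted p below 0.05, edgeR gave 0 of the 10 genes with STAR, 0 with GSNAP and 1, Inhba, with STAR+Bowtie2, where it gave 1090, 1216 and 1210 of the 15578 tested genes. For Fst the Ion Torrent change exceeded the Illumina change by 0.43 (SE 0.22, interval -0.02 to 0.87, adjusted p = 0.701), and for Id1 it was smaller, at -0.38 (SE 0.25, interval -0.90 to 0.13, adjusted p = 0.768). Without mouse UNT_9584 these terms were 0.35 (adjusted p = 0.923) and -0.20 (adjusted p = 0.995). So the differing calls of Fst and Id1 were not shown to be differing effects. For Inhba the term was 0.88 (SE 0.63, interval -0.40 to 2.17, adjusted p = 0.783), and 1.05 without mouse UNT_9584. With STAR+Bowtie2 it was 1.37 (SE 0.56, interval 0.21 to 2.53, adjusted p = 0.622). Leaving out 1 mouse with STAR moved it from 0.44 (without ILB_9577) to 1.34 (without ILB_9578).

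The rest of the pathway was read from lists of 72 other genes, of which 60 passed the filter. With Illumina STAR, 13 were called higher and 23 lower, with a median log2 change of -0.31, beside a median of 0 over all tested genes. Of all tested genes 22.7% were called higher and 22.9% lower, which is also the background for each list and for the cell markers that follow. Of 16 other ligand genes, 11 were tested, 1 was called higher and 7 lower, with a median of -0.90. Gdf15, a stress-induced ligand, rose from 5 to 14 reads with saline to 19 to 60 with IL-1β (log2 change 2.36, SE 0.37, adjusted p = 0.000106). Gdf2, the gene of BMP9, fell by 1.10 (SE 0.23, adjusted p = 0.00136) and Gdf10 fell by 1.01 (SE 0.32, adjusted p = 0.0174).

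Of 15 tested receptor and coreceptor genes, 1 was called higher and 5 lower. Acvr1b, the type I activin receptor, rose by 1.71 (SE 0.21, adjusted p = 1.18e-05), from 76 to 162 reads with saline to 191 to 426 with IL-1β. Hfe2, the gene of the hepatocyte BMP coreceptor hemojuvelin, had 535 to 645 reads with saline and 36 to 82 with IL-1β, far apart. It fell by 3.12 (SE 0.17, adjusted p = 3.10e-09). Tgfbr2, the type II TGF-β receptor, fell by 0.81 (SE 0.14, adjusted p = 0.000208).

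The signaling SMADs were split. Of 6 tested, 4 were called higher and 1 lower. Smad1 (1.10, SE 0.14, adjusted p = 1.23e-05) and Smad5 (0.60, SE 0.13, adjusted p = 0.00127), of the BMP branch, rose, whereas Smad9 of the same branch fell by 2.40 (SE 0.36, adjusted p = 7.26e-05), from 115 to 285 reads to 12 to 69. Among 6 tested extracellular antagonists 1 rose and 1 fell. Bmper, a modulator that binds BMPs, rose from 2 to 5 reads to 49 to 93 (log2 change 4.56, SE 0.30, adjusted p = 2.23e-08).

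Of 13 intracellular regulators, 2 rose and 7 fell. Those that rose were Nedd4l, a ubiquitin ligase of SMADs (1.19, SE 0.17, adjusted p = 3.47e-05), and Skil, which encodes the SMAD corepressor SnoN (1.17, SE 0.18, adjusted p = 9.15e-05). Tgif1, another corepressor, fell by 0.67 (SE 0.16, adjusted p = 0.00345). The remaining 6 that fell had smaller changes.

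Of 9 other target genes, 4 rose and 2 fell, with a median log2 change of 0.21. Id3 had 117 to 370 reads with saline and 610 to 1069 with IL-1β, with no overlap, and rose by 1.78 (SE 0.24, adjusted p = 2.01e-05). Id2 (0.21, SE 0.14, adjusted p = 0.234) and Id4 (-0.69, SE 0.43, adjusted p = 0.216) were not called in any table. Id4 had only 3 to 12 reads with saline and 2 to 6 with IL-1β, so a change in it could have been missed. The 4 Id genes thus did not share a call. Hamp had 2827 to 6871 reads with saline and 9690 to 11624 with IL-1β and rose by 1.21 (SE 0.19, adjusted p = 0.000127). Its paralog Hamp2 has a similar sequence, so the split of reads between them is uncertain. Hamp2 had 33 to 194 reads with saline and 46 to 96 with IL-1β and fell by 0.95 (SE 0.35, adjusted p = 0.0367), with a call in 2 of the 6 tables. Ctgf, the gene of a matricellular factor, rose by 1.88 (SE 0.20, adjusted p = 2.23e-06). Each of the pathway genes named as risen or fallen here, other than Hamp2, was called in the same direction in all 6 tables.

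**Figure D4:**
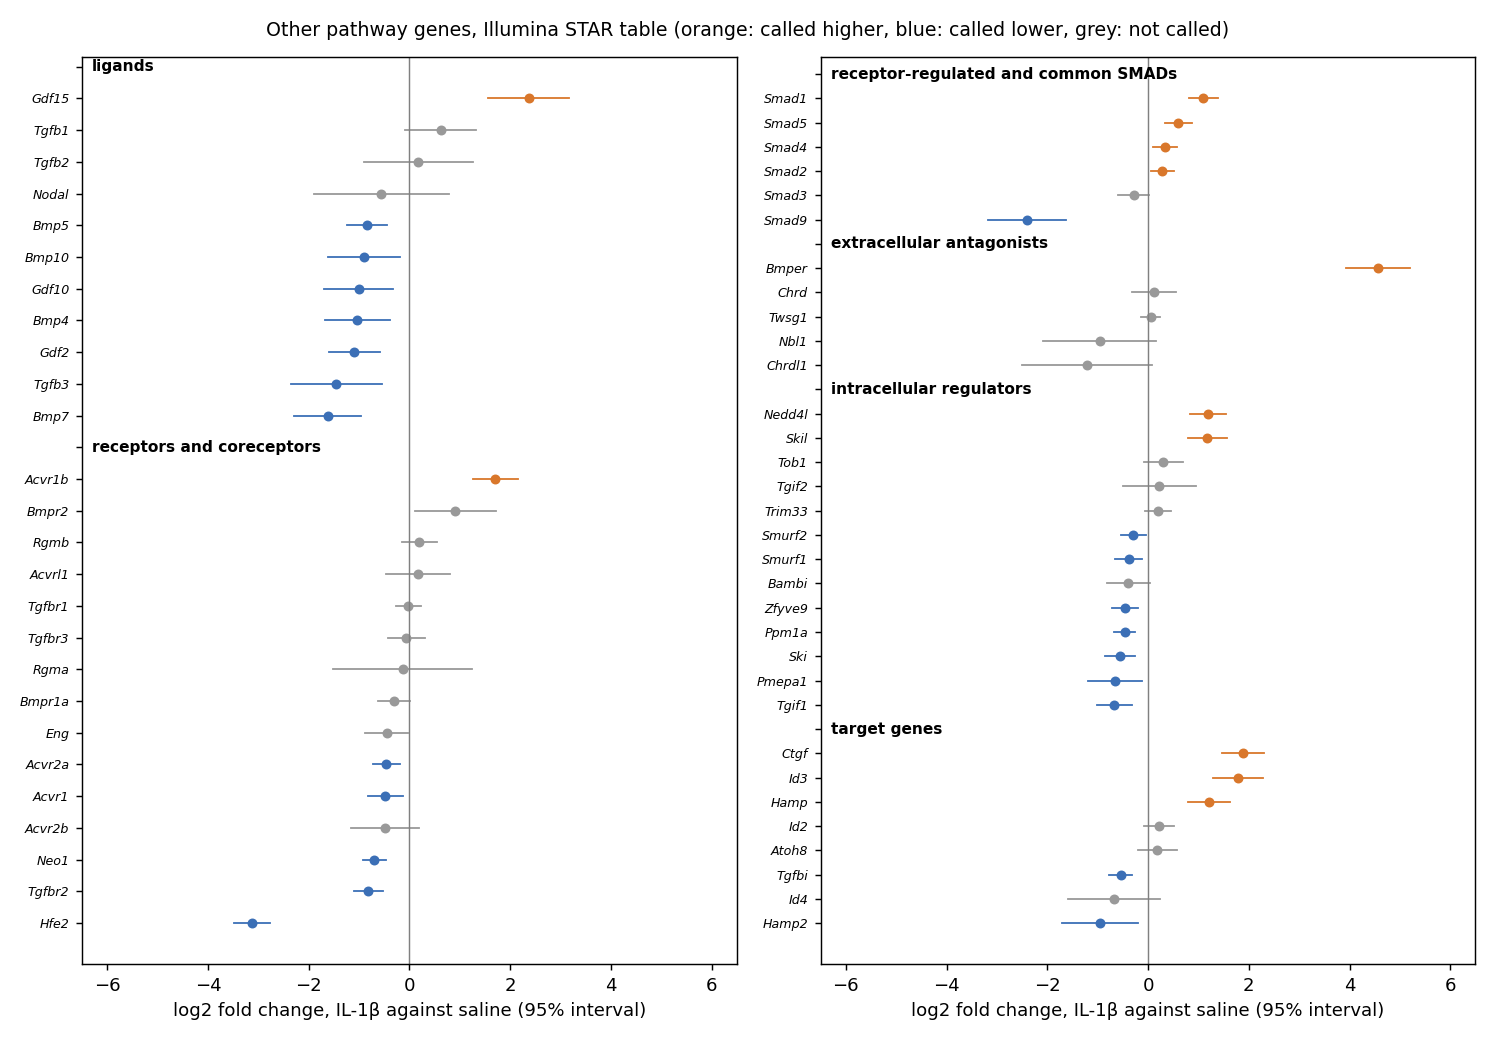
Log2 fold change of IL-1β against saline (points) with 95% intervals (lines) for 58 of the 60 tested genes of the 6 pathway lists in the Illumina STAR table, grouped by role. Orange genes were called higher (12), blue genes lower (22) and grey genes not called (24); most called ligands lie left of 0, while Ctgf, Id3 and Hamp lie right of it.

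Markers of other liver cells moved in the same samples. Of the sinusoidal endothelial markers, 2 of 8 rose and 3 fell, and the list summed to 134 to 207 CPM with saline and 104 to 174 CPM with IL-1β. Its most abundant members were Stab2 (-0.30, adjusted p = 0.201) and Kdr (-1.68, adjusted p = 9.68e-06). The members that rose were Lyve1, by 1.49, and Cdh5, by 0.89 on the log2 scale. Of the stellate cell markers, 0 of 7 rose and 3 fell (256 to 314 against 171 to 257 CPM), and of the Kupffer cell markers 1 of 6 rose and 2 fell (107 to 181 against 57.7 to 135 CPM). All 5 tested neutrophil markers rose, S100a9 by 5.29 and S100a8 by 5.18 on the log2 scale. Of the hepatocyte markers, 2 of 6 rose, Tat by 1.51 and Hnf4a by 1.05 on the log2 scale, and 1, Alb, fell by 0.53. The list summed to 84217 to 103865 against 71934 to 81356 CPM. Most of this sum was Alb, with means of 78855 CPM with saline and 54567 CPM with IL-1β. For lymphocytes 0 of 4 rose and 1 fell (1.07 to 3.0 against 0.805 to 1.78 CPM), and for cholangiocytes 2 of 5 rose and 0 fell (46.0 to 63.2 against 41.8 to 73.8 CPM). The part of these shifts in the values of Inhba, Inhbb, Inhbc and the other pathway genes was not tested.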

How the data were processed

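Liver RNA of 10 mice was sequenced as 20 libraries, and the 60 columns of the 6 deposited tables were used. The authors aligned reads to mm9 with STAR 2.5.1b, GSNAP or STAR followed by Bowtie2 2.2.9. With PORT they removed rRNA and mitochondrial reads, re-sampled each table's libraries to equal depth over genes, and deposited whole-number counts per Ensembl gene. Tables were normalized separately, so levels across tables are descriptions. Whether an Illumina count is a read or a read pair was not stated.

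Tested genes reached 5 reads in no fewer than 5 libraries of some table. They were tested with edgeR 4.0.16 (R 4.3.3): TMM scaling, quasi-likelihood test, 2-sided, Benjamini-Hochberg adjustment, called below 0.05. CPM are TMM-scaled counts per 1000000. Standard errors are the log2 change divided by the root of the F statistic. TMM factors were 0.920 to 1.10. Without this scaling the median log2 change of genes with at least 10 reads on average was -0.12. The platform-by-treatment term had the mouse as a block, since both libraries of a mouse come from the same RNA; deviations of paired libraries correlated at 0.197 or more in every mouse. Exact permutation tests compared rank sums of 5 against 5 mice. Promoters were searched in 250 bases, and gene positions are those of gencode vM1. The scripts were tested on simulated data.

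The members and lists were chosen with earlier results of these data known. Named were all members, up to 3 called genes per pathway list with the largest change and at least 20 reads on average, Id2, Id3, Id4 and Hamp, and the 2 most abundant markers per list where examples are given. For the hepatocyte list the called markers are named, and for the sinusoidal endothelial list also those called higher. Of the pathway genes, 2 are counted in their lists but not reported singly here. Alternatives were the other 5 tables, DESeq2 1.42.0, limma-voom (limma 3.58.1), the rank-sum test of the study, no scaling, RLE size factors, no filter, filterByExpr, no block and leaving out each mouse. The Ion Torrent STAR table without mouse UNT_9584 was added after seeing the data. Plots were drawn with matplotlib 3.10.9, exact tests run with scipy 1.17.1 and tables handled with pandas 2.3.3 in Python 3.11.15.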

Additional observations from a re-analysis of the deposited data

Results flagged for a closer look

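Among the groups of 5 mice of the 10 genes and the 20 pathway genes chosen by rule (60 groups in the Illumina STAR table), 4 held 1 mouse far from the other 4 by Dixon's test at its 95% critical value, where chance gives about 1 in 20 groups. Saline mouse UNT_9580 had the lowest Inhbc level, 59.8 CPM, where the other saline mice had 79.2 to 86.6. IL-1β mouse ILB_9577 had the highest Smad6 level, 4.74 CPM (50 reads), where the other treated mice had 1.18 to 2.08. The same mouse was the highest of the treated mice for Smad6 in the Ion Torrent STAR table, with 108 reads. Saline mouse UNT_9576 had the highest level of Skil, 22.0 CPM against 12.7 to 13.9. IL-1β mouse ILB_9583 had the highest level of Hamp, 1170.0 CPM against 953 to 1014. The causes were not tested.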

How the results depend on the processing

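The calls of Inhba (lower), Inhbb (higher) and Inhbc (lower) held under every alternative that gave a value (22, 23 and 23), with log2 changes of -4.24 to -2.81, 2.32 to 3.04 and -0.89 to -0.67; Inhba did not pass filterByExpr. The number of the 10 genes called higher was 2, and became 1 with Illumina GSNAP, Illumina STAR+Bowtie2, limma-voom, the rank-sum test or no scaling, 4 with Ion Torrent STAR without saline mouse UNT_9584 (Inhbb, Fst, Smad7 and Id1), and 1 to 3 leaving out 1 mouse. It was 1 without IL-1β mouse ILB_9579 or ILB_9583, or saline mouse UNT_9574 or UNT_9576. The number called lower was 2, 1 with filterByExpr, which did not test Inhba, and 2 without any 1 mouse. Id1 was called in 9 of 23 alternatives (adjusted p 0.00451 to 0.363 over all 23), Fst in 6 (0.00809 to 0.442) and Smad7 in 3 (0.0214 to 0.373). Inhbe, never called, turned positive with limma-voom (0.0070), in the Ion Torrent STAR table without saline mouse UNT_9584 (0.041) and without single mice (-0.17 to 0.12), and Smad6 without single mice ranged from -0.64 to 0.10. Without single mice Fst ranged from 0.34 to 0.81, Smad7 from 0.36 to 0.63, Bmp2 from -0.58 to -0.12 and Bmp6 from -0.50 to -0.16. Other pathway genes called were 10 to 14 higher and 17 to 27 lower over all alternatives, and all tested genes called 5932 to 7402. For the platform-by-treatment term, 0 of the 10 genes were called under any alternative; without the replicate block the count was also 0 and the Fst term 0.45. Terms that changed sign were those of Bmp6 (0.24 with GSNAP, 0.075 with STAR+Bowtie2) and Smad6 (-0.072 and -0.18), and, leaving out 1 mouse, Inhbc (-0.048 to 0.035), Smad6 (-0.16 to 0.31) and Smad7 (-0.11 to 0.038). The causes were not tested. Low counts limit Inhba, Inhbb, Id1, Smad6, Bmp6 and Fst, each below 100 reads per Illumina STAR library, and intervals that reach 0 do not show that a gene did not change. The design has 1 dose and 1 time. The p-values of the treatment effect set the difference between groups against the spread between 5 mice a group. Those of the platform-by-treatment term rest on differences between the paired libraries of each mouse.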

Other observations

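The 10 genes differed in how their levels compared between the 2 platforms, which were normalized separately, so that the ratios are descriptions. Smad6 averaged 7.63 CPM with Ion Torrent and 2.62 CPM with Illumina in saline livers (STAR tables, ratio of means 2.91), and 6.64 against 2.30 CPM in treated livers (2.88), higher with Ion Torrent in each of the 10 mice. Id1 had ratios of 2.27 and 1.68, also higher in each mouse. Fst was the gene with a ratio under 1 in both groups (0.652 and 0.882), lower with Ion Torrent in 5 of 5 saline and 4 of 5 treated mice. Inhbc (1.24 and 1.21) and Inhbe (1.25 and 1.16) lay closer to 1.

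Single mice also ran through several genes. In the Illumina STAR table, saline mouse UNT_9580 had the lowest saline level of 7 of the 10 genes (Inhbb, Inhbc, Inhbe, Bmp2, Bmp6, Smad7 and Id1) and the highest of Fst, and in the Ion Torrent STAR table the lowest of 4 (Inhbc, Inhbe, Bmp2 and Smad7) and the highest of Inhba and Fst. IL-1β mouse ILB_9578 had the lowest treated level of Smad6, Smad7 and Id1 and the highest of Bmp2 on both platforms, while IL-1β mouse ILB_9577 had the highest of Bmp6, Smad6 and Smad7 on both. IL-1β mouse ILB_9579 had the highest of Inhbb and Fst and the lowest of Inhbe and Bmp2 on both. These patterns were noticed in the data and were not tested.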
